A study of Mus musculus with 6 samples.

Results

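The mitochondrial genome of the mouse encodes 37 genes, and all 37 were found in the deposited count table as the rows whose symbol begins with mt-. They were 37 of 56674 rows and comprised 13 messenger RNA (mRNA) genes, 2 ribosomal RNA (rRNA) genes and 22 transfer RNA (tRNA) genes. Counts came from RNA of the liver of male C57BL/6 mice, an inbred laboratory strain, at 71 weeks. The control group had normal chow (3 samples) and the other group had chow containing polypropylene microplastic, PP-MP (3 samples). The series was set up to ask how prolonged intake of PP-MP affects gene expression in the liver. In the labels, the treatment protocol of all 6 samples mentions PS-MP; the groups used here follow the sample titles and the treatment characteristic, which give PP-MP or normal food. Neither a dose nor a particle size is given in the sources used here. Whether replicates came from separate animals is not stated, so every p-value measures the spread between these samples, which may be technical.

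Mitochondrial DNA is a small circle that is transcribed from both strands into long precursor RNAs, and the tRNAs lie between most of the other genes and mark where the precursors are cut. The mRNAs encode subunits of respiratory complexes I, III, IV and V, and the rRNAs and tRNAs serve the ribosomes that translate those mRNAs inside the organelle. Hepatocytes are rich in mitochondria, and every polymerase, processing enzyme and aminoacyl-tRNA synthetase that acts on these RNAs is encoded in the nucleus. Because genes of 1 strand share a precursor, the 37 genes are not independent of one another. All values below come from the same 6 libraries.

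Neighbouring mitochondrial genes can share bases, which matters here because a read in a shared stretch can be counted for either gene. The end of mt-Nd4l and the start of mt-Nd4 overlap, as do the end of mt-Atp8 and the start of mt-Atp6. Shared bases are in capitals, and the sequences are those of GENCODE M21 (GRCm38), 5′ to 3′, 60 bases each.
mt-Nd4l end: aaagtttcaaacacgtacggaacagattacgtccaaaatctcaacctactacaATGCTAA
mt-Nd4 start: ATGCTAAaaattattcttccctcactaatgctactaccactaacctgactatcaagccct
mt-Atp8 end: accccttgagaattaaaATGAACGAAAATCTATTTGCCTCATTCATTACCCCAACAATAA
mt-Atp6 start: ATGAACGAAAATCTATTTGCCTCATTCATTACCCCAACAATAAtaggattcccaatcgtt
The overlap spans 7 bases in the first pair and 43 bases in the second.

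Nuclear copies of mitochondrial genes add a further ambiguity. A search of the same annotation found 11 nuclear pseudogenes that matched a mitochondrial mRNA gene at 95% identity or more over at least 100 bases. Copies of mt-Atp6, mt-Co2, mt-Co3, mt-Nd4l and mt-Nd4 matched at 100% identity. A copy of mt-Co1 (Gm29216) differed at 1 base over 483 aligned bases and a copy of mt-Nd3 (Gm28438) at 1 base over 345. The differing base is in capitals, and positions are counted from 1 at the 5′ end of the mitochondrial gene.
mt-Co1, A1066T: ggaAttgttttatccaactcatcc
Gm29216: ggaTttgttttatccaactcatcc
mt-Nd3, T3C: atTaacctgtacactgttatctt
Gm28438: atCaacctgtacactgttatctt
Counts on the 11 copies amounted to 25.6% to 29.7% of the counts on the mitochondrial genes, so values of the 9 mRNA genes with such a copy are uncertain in level.

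Shown next are 7 tRNA genes, the 6 tested genes of the light-strand set, which carried most of the tRNA counts, and mt-Tl1, which separated the groups under either scaling. They are given as genes with the anticodon in capitals, from the same annotation. The first 4 are neighbours read from the light strand, mt-Tp and mt-Te are also in the light-strand set, and mt-Tl1 lies between mt-Rnr2 and mt-Nd1 in the heavy-strand set.
mt-Ta (alanine): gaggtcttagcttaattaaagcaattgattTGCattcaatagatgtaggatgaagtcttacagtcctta
mt-Tn (asparagine): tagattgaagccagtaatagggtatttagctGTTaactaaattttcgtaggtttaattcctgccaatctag
mt-Tc (cysteine): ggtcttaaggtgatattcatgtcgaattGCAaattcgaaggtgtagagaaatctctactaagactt
mt-Ty (tyrosine): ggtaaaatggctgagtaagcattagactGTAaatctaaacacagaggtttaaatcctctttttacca
mt-Tp (proline): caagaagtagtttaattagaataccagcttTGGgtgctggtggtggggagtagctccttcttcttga
mt-Te (glutamate): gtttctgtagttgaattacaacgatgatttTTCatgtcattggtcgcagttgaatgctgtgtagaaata
mt-Tl1 (leucine): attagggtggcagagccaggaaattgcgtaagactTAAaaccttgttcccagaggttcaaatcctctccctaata

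Libraries held 68357478 to 112566641 counts. Hepatocyte markers were high in every library (58199 to 69960 counts scaled to library size, CPM, summed over 6 genes in controls and 65207 to 76137 in PP-MP). Summed markers were higher in all PP-MP libraries than in all controls for Kupffer cells (80.7 to 104 CPM in controls, 117 to 444 in PP-MP) and neutrophils (0.707 to 0.992 and 2.44 to 18.9 CPM), and lower for T cells (4.32 to 7.35 and 3.12 to 3.56 CPM). Such sums follow the most abundant markers. Taken singly, 2 of 6 Kupffer cell, 3 of 6 neutrophil and 3 of 6 T cell markers separated the groups that way. Of the stellate cell markers 2 of 6 were also higher in every PP-MP library, and 1 of 6 red cell markers was lower. Of all genes tested, 9.78% were lower in every PP-MP library, and the share higher in every one is not given here. These counts are therefore no result about the cell types. The sums of the red cell, stellate, sinusoidal endothelial, cholangiocyte and B cell lists overlapped between groups. No marker was at 0 in all libraries, and edgeR called no marker of the 9 lists. The nuclear 18S rRNA gene Rn18s-rs5 took 2.92%, 11.2% and 1.15% of all counts in controls 1, 2 and 3 and 0.655% to 0.750% in the PP-MP libraries. What part these differences had in the results below was not tested. The labels name no batch, and one that coincided with diet cannot be told apart from it. In bulk liver, fewer cells of a type and less RNA per cell cannot be told apart either.

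Mitochondrial genes supplied 14.9%, 16.4% and 16.02% of all counts in controls 1, 2 and 3, and 16.5%, 11.6% and 13.5% in PP-MP 1, 2 and 3. Their Wilson 95% interval in control 1 ran from 14.8% to 14.9%, was as narrow in the other libraries, and covers counting error only. PP-MP 1 was the highest of the 6 libraries and PP-MP 2 the lowest, so the groups overlapped. The mean share was 15.8% ± 0.819 in controls and 13.9% ± 2.47 in PP-MP (SD, n = 3 per group; exact permutation test, two-sided, p = 0.4). The smallest p that 3 against 3 can reach is 0.1, and 6 such comparisons were made, of which this is 1 (Benjamini-Hochberg adjusted p = 0.6). Without PP-MP 1 the difference went from −1.91 to −3.22 percentage points, and without PP-MP 2 to −0.77. With Rn18s-rs5 left out of the total it was −2.72 (exact permutation p = 0.3). The shares were then 15.3%, 18.5% and 16.2% in controls 1, 2 and 3 and 16.6%, 11.7% and 13.6% in PP-MP 1, 2 and 3. Control 2 was then the highest library, and the groups still overlapped.

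The comparison of PP-MP with control placed nearly all mitochondrial RNAs lower in PP-MP, but none beyond the spread between samples by the adjusted test. Of the 37 genes, 32 passed the filter on low counts, including all 13 mRNA genes, both rRNA genes and 17 tRNA genes. By edgeR's quasi-likelihood test with Benjamini-Hochberg adjustment over 18284 genes, 0 of the 32 passed 0.05, against 0.0109% of all genes tested. At an unadjusted p under 0.05 there were 6 of 32, all lower in PP-MP (mt-Co1, mt-Tg, mt-Th, mt-Tk, mt-Tl1 and mt-Ty), against 13.9% of all genes in either direction. This count was 0 with library totals in place of scaling factors, 18 by DESeq2, 1 without control 3, 1 without PP-MP 2, 9 without PP-MP 1 and 12 without PP-MP 3. The share of all genes at this p was not counted under these settings. The counts therefore show only how far the number moved, and are no result about the mitochondrial genes. DESeq2 called 1 of the 32, mt-Co1, and 4.25% of all genes, and limma-voom called 0.

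Fitted differences were negative for 31 of the 32 genes, and mt-Nd6 was the exception. The median log2 fold change was −0.64 over the 32 genes and 0.03 over all genes tested. The TMM factors were 0.882 to 0.957 in controls and 1.03 to 1.12 in PP-MP. Scaling moved both medians: with library totals in place of the trimmed mean of M-values (TMM) factors, the median of all genes shifted by 0.23 to 0.26 and that of the mitochondrial genes to −0.42, with 25 genes lower and 7 higher. In 12 of 32 genes every PP-MP library was below every control library, which held for 9.78% of all genes tested. With library totals this was so for 3 genes (mt-Co1, mt-Nd4 and mt-Tl1) and for 2.59% of all genes. The median log2 fold change was −0.41 in the mRNA genes, −0.46 in the 2 rRNA genes and −0.74 in the tested tRNA genes.

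**Figure D1:**
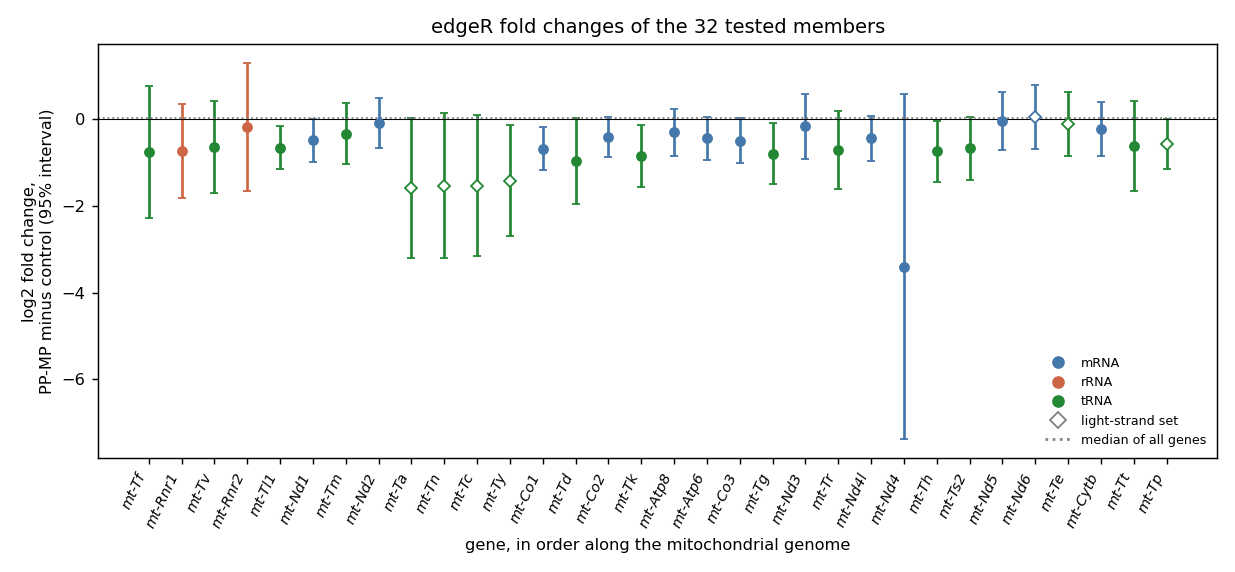
Log2 fold change of each tested mitochondrial gene (PP-MP minus control, edgeR with TMM factors), in genome order, with its 95% interval; open diamonds are genes read from the light strand. Points lie below 0 for 31 of 32 genes, and the interval of mt-Nd4, fitted at −3.40, is the widest.

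The summed mRNA counts were lower in every PP-MP library under TMM scaling. They came to 148529, 164661 and 162338 CPM in controls 1, 2 and 3 and to 139463, 96698 and 120166 CPM in PP-MP 1, 2 and 3. On the log2 scale the difference of means was −0.43 (SD 0.081 in controls and 0.27 in PP-MP, n = 3 per group; exact permutation test, two-sided, p = 0.1, adjusted p = 0.6 over 6 comparisons). PP-MP 1 lay closest to the controls and PP-MP 2 farthest from them. With library totals the difference was −0.20 and the groups overlapped (exact permutation p = 0.4). Over the 4 mRNA genes without a nuclear copy the difference was −0.33, and with the copies added to the sum −0.44.

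Ribosomal RNA sums did not separate the groups. They were 5172, 19214 and 7079 CPM in controls 1, 2 and 3 and 9203, 5410 and 9028 CPM in PP-MP 1, 2 and 3. Control 2 was the highest, and control 1 was the lowest. The log2 difference was −0.22 (SD 0.99 in controls and 0.43 in PP-MP, n = 3; exact permutation p = 0.9, adjusted p = 0.9), and it was 0.34 without control 2, the library with the largest 18S share.

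Transfer RNA sums had the most negative class difference. They were 1520, 2333 and 2944 CPM in controls 1, 2 and 3 and 1303, 818 and 1720 CPM in PP-MP 1, 2 and 3. PP-MP 3 lay above control 1, so the groups overlapped (log2 difference −0.84, SD 0.48 in controls and 0.54 in PP-MP, n = 3; exact permutation p = 0.2, adjusted p = 0.6). Without PP-MP 2 the difference was −0.55. Without the 4 neighbouring genes mt-Ta, mt-Tn, mt-Tc and mt-Ty it was −0.51, with no overlap between diets under TMM scaling (exact permutation p = 0.1). These 4 genes were left out after the data were seen, so that separation and its p are a description and not a test.

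Ratios within a library need no scaling factor. They compare counts and not the amounts of the classes in the tissue, because the libraries were made from poly(A)-selected RNA. The mRNA counts in them leave out counts on nuclear copies. Per 100 mRNA counts there were 3.48, 11.7 and 4.36 rRNA counts in controls 1, 2 and 3 and 6.60, 5.59 and 7.51 in PP-MP 1, 2 and 3. All PP-MP libraries lay above control 1 and control 3 and below control 2. The log2 ratio differed by 0.22 (exact permutation p = 0.8, adjusted p = 0.9, n = 3 per group). Without control 2 it differed by 0.74 and without control 1 by −0.13.

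Per 100 mRNA counts there were 1.02, 1.42 and 1.81 tRNA counts in controls 1, 2 and 3 and 0.935, 0.846 and 1.43 in PP-MP 1, 2 and 3. PP-MP 3 lay within the control range and the other two PP-MP libraries below it. The log2 ratio differed by −0.41 (exact permutation p = 0.3, adjusted p = 0.6, n = 3 per group), by −0.21 without control 3 and by −0.63 without PP-MP 3. Neither ratio differed between diets beyond the spread of the samples.

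**Figure D2:**
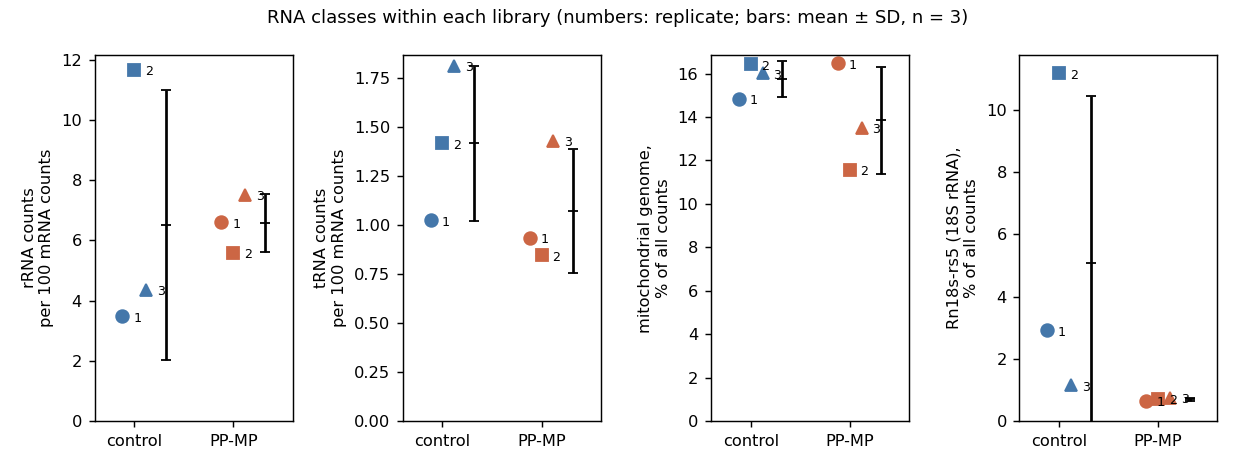
Class ratios within each library, the mitochondrial share of all counts and the share of the nuclear 18S rRNA gene Rn18s-rs5, by diet; points are numbered by replicate and bars are mean ± SD (n = 3). Control 2 stands apart in rRNA per 100 mRNA counts (11.7) and in 18S share (11.2%), and the tRNA ratios of both diets overlap.

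Complex IV, cytochrome c oxidase, passes electrons to oxygen, and its catalytic core is encoded by mt-Co1, mt-Co2 and mt-Co3. All 3 were lower in all PP-MP libraries than in all controls under TMM scaling, as were 9.78% of all genes tested. None of the 3 passed the adjusted test, and with library totals mt-Co2 and mt-Co3 overlapped between diets. The level of mt-Co1 was 52834, 48736 and 53609 CPM in controls 1, 2 and 3 and 36512, 27315 and 32663 CPM in PP-MP 1, 2 and 3. The controls lay close together and well above PP-MP 1, the nearest PP-MP library. The log2 fold change of mt-Co1 was −0.69 (SE 0.21, 95% interval −1.18 to −0.19; edgeR quasi-likelihood adjusted p = 0.272), and that of DESeq2 was −0.70 (adjusted p = 0.00645). As a share of all counts mt-Co1 took 5.05%, 4.30% and 4.98% in controls and 4.01%, 3.07% and 3.37% in PP-MP, which did not overlap either.

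The level of mt-Co2 was 9221, 9125 and 8339 CPM in controls and 7332, 5600 and 7154 CPM in PP-MP 1, 2 and 3 (log2 fold change −0.41, SE 0.19; edgeR adjusted p = 0.399). For mt-Co3 it was 5458, 4800 and 6634 CPM in controls and 4614, 3318 and 4014 CPM in PP-MP (−0.50, SE 0.22; edgeR adjusted p = 0.371). Of the PP-MP libraries, PP-MP 2 was lowest for both genes. Their nuclear copies Gm28661 and Gm28437, identical over the aligned bases, held 0.990 to 0.997 counts per mt-Co2 count and 1.67 to 1.90 per mt-Co3 count. The copy of mt-Co1 with 1 differing base, Gm29216, held 0.155 to 0.180 counts per mt-Co1 count.

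Complex I, NADH dehydrogenase, takes electrons from NADH, and 7 of its subunits are mitochondrial genes. The members differed among themselves under TMM scaling. There, mt-Nd1, mt-Nd4l and mt-Nd4 were lower in every PP-MP library, whereas mt-Nd2, mt-Nd3, mt-Nd5 and mt-Nd6 overlapped between diets. With library totals mt-Nd1 and mt-Nd4l overlapped too. PP-MP 1 then had the highest mt-Nd4l share of all counts (1.42%, against 1.28% to 1.33% in controls). The row of mt-Nd4 is uncertain, as set out below. For mt-Nd1 the values were 13550, 10731 and 14587 CPM in controls 1, 2 and 3 and 9433, 8081 and 10206 CPM in PP-MP 1, 2 and 3 (log2 fold change −0.49, SE 0.21; edgeR adjusted p = 0.367). Control 2 was the lowest control for this gene and still above PP-MP 3.

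For mt-Nd2 the values were 10980, 16471 and 13142 CPM in controls and 14040, 10293 and 13816 CPM in PP-MP, with PP-MP 1 and PP-MP 3 within the control range. The log2 fold change was −0.09 (SE 0.24; edgeR adjusted p = 0.889), and with library totals it was 0.15. For mt-Nd5 they were 9664, 14408 and 12798 CPM in controls and 15362, 8524 and 11774 CPM in PP-MP, where PP-MP 1 was the highest of all 6 libraries and PP-MP 2 the lowest (−0.05, SE 0.28; edgeR adjusted p = 0.955). For mt-Nd3 they were 464, 911 and 775 CPM in controls and 830, 478 and 605 CPM in PP-MP (−0.17, SE 0.31; edgeR adjusted p = 0.830), so that control 1 was the lowest library and control 2 the highest.

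The gene mt-Nd6 is the mRNA gene of the light strand. Its values were 181, 217 and 110 CPM in controls and 190, 123 and 214 CPM in PP-MP 1, 2 and 3. Control 3 was the lowest and control 2 the highest, and the log2 fold change was 0.05 (SE 0.31; edgeR adjusted p = 0.955), which was −0.15 without control 3. It lies opposite the heavy-strand precursor and overlaps the end of mt-Nd5 by 14 bases. The strand setting of the counting is not given in the sources used here, so reads from the opposite strand cannot be told apart in its counts or in those of the light-strand tRNAs.

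The neighbours mt-Nd4l and mt-Nd4 are transcribed as 1 bicistronic mRNA. For mt-Nd4l the values were 13943, 14505 and 13905 CPM in controls and 12946, 8310 and 9830 CPM in PP-MP (fitted log2 fold change −0.45, SE 0.22; edgeR adjusted p = 0.423). The row of mt-Nd4 behaved differently, with raw counts of 28480, 67595 and 60698 in controls 1, 2 and 3 and 16, 4362 and 15541 in PP-MP 1, 2 and 3. Its nuclear copy Gm28439, identical over 876 of the 1378 bases of mt-Nd4, held 493083, 419348 and 644828 counts in controls and 607427, 358130 and 471167 in PP-MP. In every library, then, the copy outnumbered the gene, and in PP-MP 1 the gene row was all but empty while the copy was not.

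For this reason the fitted value of mt-Nd4 (log2 fold change −3.40, SE 1.67; edgeR adjusted p = 0.419) is not a measure of the mt-Nd4 transcript alone. When each copy and each overlapping neighbour was summed with its gene, the joint value for mt-Nd4l and mt-Nd4 was −0.49 (SE 0.23; edgeR adjusted p = 0.400), near that of mt-Nd4l alone. The joined pair of mt-Atp8 and mt-Atp6 had −0.36 (SE 0.23) and joined mt-Co1 −0.68 (SE 0.22), and again 0 of the mitochondrial genes passed.

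Complex III, which moves electrons to cytochrome c, has 1 mitochondrial subunit, cytochrome b, encoded by mt-Cytb. Its values were 16356, 23468 and 18729 CPM in controls and 21505, 13076 and 15381 CPM in PP-MP 1, 2 and 3. PP-MP 1 lay between control 3 and control 2, and the other PP-MP libraries below every control. The log2 fold change was −0.23 (SE 0.26; edgeR adjusted p = 0.717), and with library totals it was 0.01.

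Complex V, the ATP synthase, has its proton channel subunit encoded by mt-Atp6, with mt-Atp8 on the same mRNA. For mt-Atp6 the values were 7093, 8489 and 8258 CPM in controls and 6831, 4736 and 5985 CPM in PP-MP (fitted log2 fold change −0.44, SE 0.21; edgeR adjusted p = 0.404). For mt-Atp8 they were 8393, 11681 and 10871 CPM in controls and 9867, 6795 and 8374 CPM in PP-MP (−0.31, SE 0.23; edgeR adjusted p = 0.578). The first separated the diets narrowly under TMM scaling but not with library totals, and the second overlapped because PP-MP 1 exceeded control 1. The identical nuclear copy of mt-Atp6, Gm10925, held 1.44 to 1.63 counts per mt-Atp6 count.

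**Figure D3:**
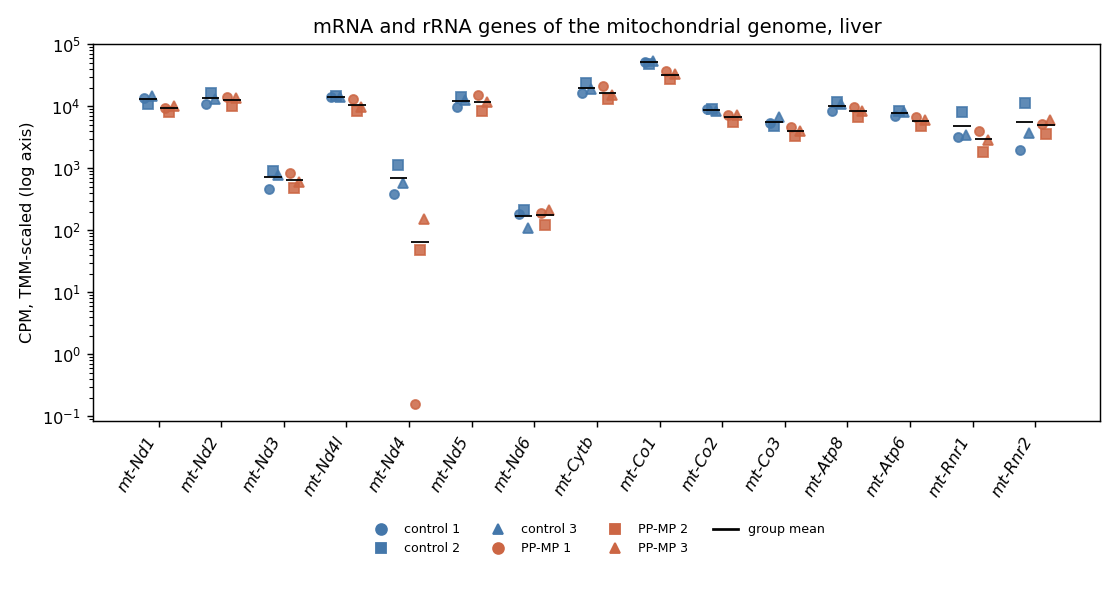
Level of each mitochondrial mRNA and rRNA gene in each library (CPM with TMM factors, log axis), by diet; symbols mark the replicate and bars the group mean. For mt-Co1 the controls (48736 to 53609 CPM) sit above all PP-MP libraries (27315 to 36512 CPM), and for mt-Nd4 PP-MP 1 stands at 0.158 CPM.

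The composition of the mRNA counts was then compared by respiratory complex. Within each library, complex I genes took 33.1%, 35.4% and 34.4% of the mRNA counts in controls 1, 2 and 3 and 37.9%, 37.1% and 38.8% in PP-MP 1, 2 and 3. Complex IV genes took 45.5%, 38.1% and 42.2% in controls and 34.7%, 37.5% and 36.5% in PP-MP. Every PP-MP library was above the controls in the first share and below them in the second. The complex III share was 11.01%, 14.3% and 11.5% in controls and 15.4%, 13.5% and 12.8% in PP-MP, and the complex V share was 10.4% to 12.2% and 11.93% to 11.97%, both overlapping.

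These 4 shares sum to 100 within a library, so they are not separate results, and as they were chosen after values were seen they carry no test. They are unaffected by any scaling of libraries. With the nuclear copies added to their genes, complex I took 29.1% to 31.3% in controls and 32.2% to 33.3% in PP-MP. Complex IV then took 41.9% to 49.3% in controls and 39.3% to 41.99% in PP-MP, so that its separation was lost. Single genes whose share was higher in all PP-MP libraries were mt-Nd2 (7.39%, 10.003% and 8.10% in controls, 10.1%, 10.6% and 11.5% in PP-MP) and mt-Nd5 (6.51% to 8.75% and 8.81% to 11.01%). Lower in all of them were mt-Nd4, whose row is uncertain, and mt-Co1 (35.6%, 29.6% and 33.0% in controls, 26.2%, 28.2% and 27.2% in PP-MP).

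**Figure D4:**
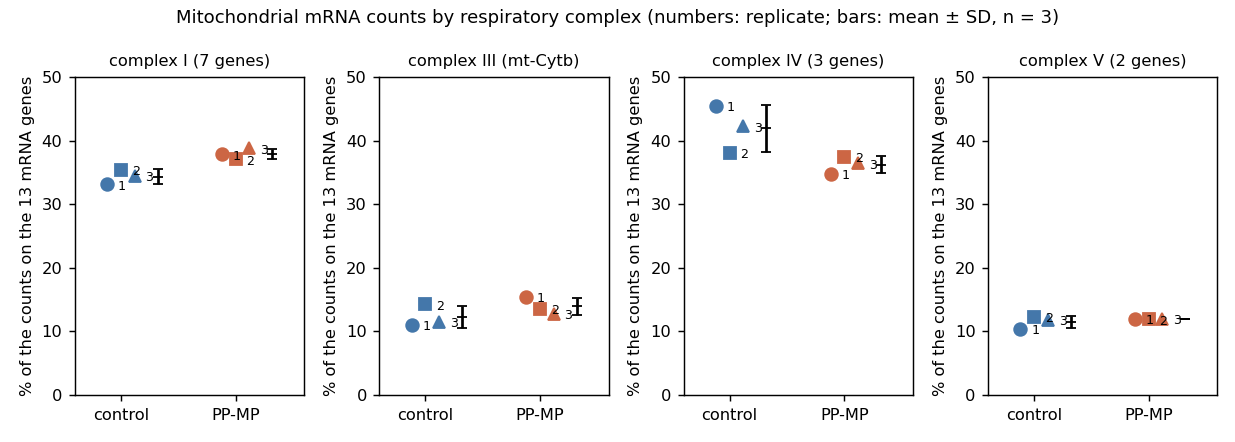
Share of the mitochondrial mRNA counts that fell on the genes of each respiratory complex, in percent, by diet; points are numbered by replicate and bars are mean ± SD (n = 3). Complex I lies at 33.1% to 35.4% in controls and 37.1% to 38.8% in PP-MP, and complex IV at 38.1% to 45.5% and 34.7% to 37.5%.

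The 2 rRNA genes build the small (mt-Rnr1, 12S) and large (mt-Rnr2, 16S) subunits of the mitochondrial ribosome. The libraries were made from poly(A)-selected RNA, so rRNA and tRNA counts stand for the molecules that passed that selection. For mt-Rnr1 the values were 3224, 8043 and 3403 CPM in controls 1, 2 and 3 and 4072, 1863 and 2899 CPM in PP-MP 1, 2 and 3 (log2 fold change −0.73, SE 0.45; edgeR adjusted p = 0.502). For mt-Rnr2 they were 1948, 11170 and 3676 CPM in controls and 5131, 3546 and 6129 CPM in PP-MP (−0.18, SE 0.62, 95% interval −1.66 to 1.30; edgeR adjusted p = 0.917). Control 2 was the highest library for both genes.

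Leaving out control 2 gave mt-Rnr1 a log2 fold change of −0.15 and mt-Rnr2 one of 0.82. There were 0.604, 1.39 and 1.08 mt-Rnr2 counts per mt-Rnr1 count in controls and 1.26, 1.90 and 2.11 in PP-MP 1, 2 and 3. PP-MP 2 and PP-MP 3 were above every control in this ratio, and PP-MP 1 was between control 3 and control 2.

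Transfer RNAs carry amino acids to the ribosome. Of the 22 tRNA genes, 17 passed the filter, 11 of 14 in the heavy-strand set and 6 of 8 in the light-strand set. All 17 had negative fitted log2 fold changes, from −1.59 to −0.12, and edgeR called 0 (smallest adjusted p = 0.281). The light-strand tRNA genes held 89.5% to 93.9% of the tRNA counts across libraries, and the most abundant per length, mt-Tp, was among them. PP-MP 2 was the lowest library for 16 of the 17 genes, and control 3 the highest for 11.

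The 4 neighbours mt-Ta, mt-Tn, mt-Tc and mt-Ty ranked the 6 libraries in the same order. For mt-Tn, the tRNA for asparagine, the values were 118, 367 and 544 CPM in controls 1, 2 and 3 and 72.5, 59.9 and 223 CPM in PP-MP 1, 2 and 3. For mt-Ty, the tRNA for tyrosine, they were 50.7, 124 and 156 CPM and 33.4, 22.3 and 68.3 CPM. In both genes PP-MP 3 exceeded control 1, so the diets overlapped although PP-MP 1 and PP-MP 2 lay below every control.

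For mt-Ta, the tRNA for alanine, the values were 68.9, 200.07 and 308 CPM in controls and 41.4, 32.4 and 117 CPM in PP-MP. For mt-Tc, the tRNA for cysteine, they were 108, 319 and 468 CPM in controls and 64.1, 52.1 and 192 CPM in PP-MP, with 1.10 to 1.16 mt-Tn counts per mt-Tc count in all 6 libraries. The log2 fold changes were −1.59 (SE 0.68) for mt-Ta, −1.54 (SE 0.70) for mt-Tn, −1.54 (SE 0.68) for mt-Tc and −1.42 (SE 0.54) for mt-Ty, with edgeR adjusted p of 0.364, 0.389, 0.379 and 0.339.

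Per 100 mRNA counts these 4 genes had 0.232, 0.614 and 0.910 counts in controls and 0.152, 0.172 and 0.499 in PP-MP. The other 18 tRNA genes had 0.791, 0.803 and 0.904 in controls and 0.783, 0.674 and 0.932 in PP-MP. The spread in the tRNA to mRNA ratio thus lay mainly in the 4 neighbours. Without them, a choice made after the data were seen, the log2 ratio differed by −0.07 between diets (exact permutation p = 0.7, n = 3 per group). In neither of these 2 ratios did the diets separate.

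The light-strand tRNA for proline, mt-Tp, was at 814, 795 and 977 CPM in controls and 627, 400.3 and 706 CPM in PP-MP (fitted log2 fold change −0.58, SE 0.24; edgeR adjusted p = 0.361). It was lower in every PP-MP library under TMM scaling but not with library totals. The tRNA for glutamate, mt-Te, which lies between mt-Nd6 and mt-Cytb, was at 202, 353 and 310.3 CPM in controls and 339, 174 and 284 CPM in PP-MP (−0.12, SE 0.31; edgeR adjusted p = 0.884). Its library order, with PP-MP 1 high and PP-MP 2 lowest, was closer to that of mt-Nd5 and mt-Cytb than to that of the 4 neighbours.

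In the heavy-strand set mt-Tl1, a leucine tRNA, had the steadiest controls. It was at 89.4, 92.0 and 86.3 CPM in controls and 62.4, 40.3 and 67.0 CPM in PP-MP, lower in every PP-MP library under either scaling (log2 fold change −0.66, SE 0.21, 95% interval −1.15 to −0.17; edgeR adjusted p = 0.281). For mt-Ts2, a serine tRNA, the values were 23.6, 26.2 and 37.2 CPM in controls and 16.9, 12.2 and 25.4 CPM in PP-MP (−0.67, SE 0.31), and for mt-Tm, the methionine tRNA, 25.5, 28.3 and 25.6 CPM and 31.3, 14.3 and 17.1 CPM (−0.34, SE 0.30). In mt-Tm it was PP-MP 1 that was highest of the 6 libraries.

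The tRNA for histidine, mt-Th, was at 9.52, 14.6 and 15.5 CPM in controls and 7.91, 5.40 and 10.4 CPM in PP-MP (fitted log2 fold change −0.74, SE 0.30; edgeR adjusted p = 0.350). The tRNAs for lysine (mt-Tk), glycine (mt-Tg) and aspartate (mt-Td) were lower in every PP-MP library under TMM scaling but not with library totals. In CPM, mt-Tk was at 2.42, 1.72 and 2.63 in controls against 1.12, 1.01 and 1.63 in PP-MP. The ranges were 2.11 to 3.76 against 1.38 to 1.95 CPM for mt-Tg and 0.630 to 0.992 against 0.252 to 0.604 CPM for mt-Td. Their log2 fold changes were −0.85 (SE 0.30), −0.80 (SE 0.30) and −0.96 (SE 0.41). The remaining 4, mt-Tf, mt-Tv, mt-Tr and mt-Tt, had means of 0.192 to 4.48 CPM in controls and 0.112 to 2.91 CPM in PP-MP. They overlapped between diets, with log2 fold changes of −0.75, −0.65, −0.71 and −0.62. Without control 2 those of mt-Tf and mt-Tr were −0.01 and −0.31, without PP-MP 2 that of mt-Tv was −0.34, and that of mt-Tt was −0.31 without control 3 and −1.19 without PP-MP 3.

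The 5 tRNA genes that did not pass the filter were mt-Ti, mt-Tq, mt-Tw, mt-Ts1 and mt-Tl2, for isoleucine, glutamine, tryptophan, serine and leucine. The first 3 stood at exactly 1 count in all 6 libraries, as did 216 rows of the table out of 30797 with any count. The row of mt-Ts1 held 1 or 2 counts per library, and that of mt-Tl2 1 in 4 libraries, 5 in PP-MP 2 and 12 in PP-MP 3. With so few counts no difference in these 5 genes was detectable. Why rows stood at exactly 1 in libraries of differing depth was not tested.

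**Figure D5:**
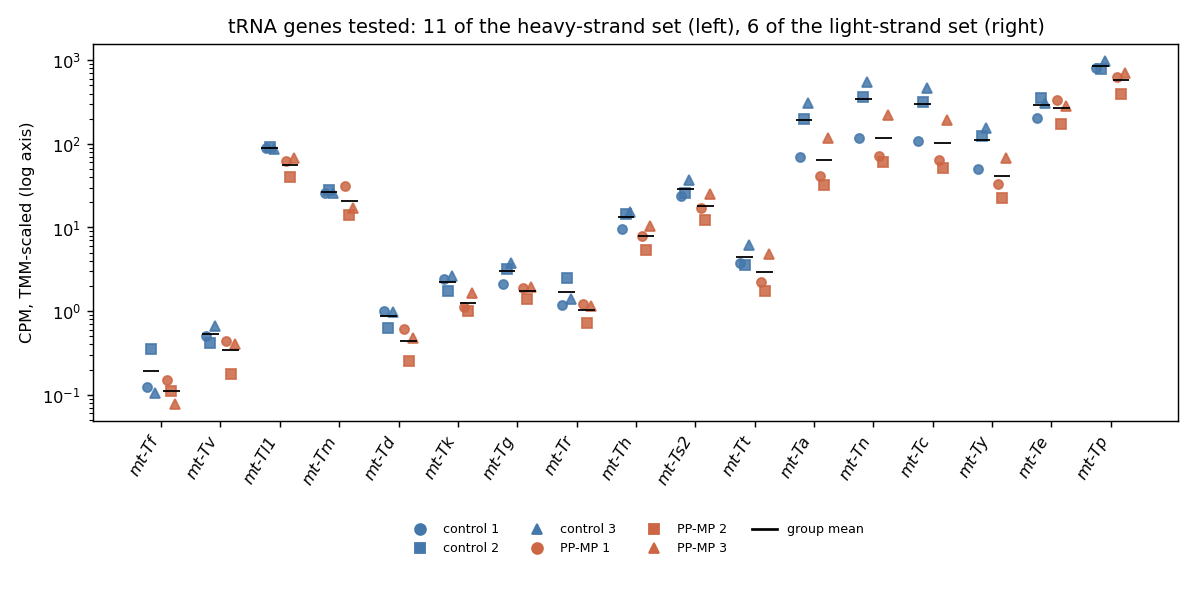
Level of each tested mitochondrial tRNA gene in each library (CPM with TMM factors, log axis), heavy-strand set on the left and light-strand set on the right, by diet; bars are group means. In mt-Tn the libraries run from 59.9 to 544 CPM and the diets overlap, whereas in mt-Tl1 the controls (86.3 to 92.0 CPM) sit above PP-MP (40.3 to 67.0 CPM).

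Levels compared between genes are per kilobase of gene length. They leave out counts on nuclear copies, so the places of genes with a copy are uncertain. No allowance was made for reads that reach past the ends of a gene. The places of short genes, such as mt-Atp8 (204 bases), mt-Nd4l (297 bases) and mt-Tp (67 bases), are therefore uncertain too. Identical copies held 1.44 to 1.63 counts per mt-Atp6 count, 0.990 to 0.997 per mt-Co2 count and 1.67 to 1.90 per mt-Co3 count. That of mt-Nd4l, Gm10222, held 1 count in every library. In control, mt-Atp8 (50565 ± 8398 CPM per kb, SD, n = 3) and mt-Nd4l (47535 ± 1130) were highest, followed by mt-Co1 (33480 ± 1695), mt-Cytb (17061 ± 3165) and mt-Nd1 (13538 ± 2085). The first pair did not differ beyond their spread, nor did mt-Cytb and mt-Nd1. The next levels, mt-Nd2 (13035 ± 2665), mt-Co2 (13004 ± 707) and mt-Tp (12866 ± 1490), lay within one another's spread. Then followed mt-Atp6 at 11669 ± 1099, although it lies on the same mRNA as mt-Atp8. The rRNA genes stood lower, mt-Rnr1 at 5120 ± 2861 and mt-Rnr2 at 3539 ± 3099 CPM per kb, and mt-Nd6 at 326 ± 105. The uncertain row of mt-Nd4 was at 506 ± 275, although mt-Nd4l lies on the same mRNA. In PP-MP the first 3 places were the same, with 40909 ± 7531 for mt-Atp8, 34889 ± 7958 for mt-Nd4l and 20818 ± 2989 for mt-Co1.

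Nuclear genes that act on mitochondrial DNA and RNA gave no call either. Of 26 genes of mitochondrial DNA replication and transcription all were tested, 0 passed the edgeR test, 16 were fitted higher and 10 lower, and the median log2 fold change was 0.18. All 5 at an unadjusted p under 0.05 were higher in PP-MP, against 13.9% of all genes in either direction. Dna2, a nuclease and helicase of DNA replication, was at 5.84, 7.11 and 4.75 CPM in controls and 11.4, 9.60 and 10.9 CPM in PP-MP (fitted log2 fold change 0.85, SE 0.20; edgeR adjusted p = 0.212), and the diets did not overlap. Primpol, a primase and polymerase, was at 2.21 ± 0.617 and 3.66 ± 0.461 CPM (0.73, SE 0.27), and Mterf2, a factor of the mitochondrial transcription termination family, at 1.58 ± 0.215 and 2.43 ± 0.178 CPM (0.62, SE 0.22; SD, n = 3). Top1mt, the mitochondrial topoisomerase I, was at 18.9 ± 1.98 and 13.04 ± 4.47 CPM (−0.54, SE 0.28). It stood at 7.89, 15.3 and 15.9 CPM in PP-MP 1, 2 and 3, and without PP-MP 1 its log2 fold change was −0.28. The topoisomerase gene Top3a had −0.23 and the exonuclease gene Mgme1 −0.22.

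Of 44 genes that process, modify or degrade mitochondrial RNA, 0 passed, 16 were fitted higher and 28 lower, and the median was −0.09. The 1 gene at an unadjusted p under 0.05 was Nsun4, an rRNA methyltransferase, at 15.9 ± 1.29 CPM in controls and 11.3 ± 1.69 CPM in PP-MP (fitted log2 fold change −0.49, SE 0.16; edgeR adjusted p = 0.297). Grsf1, an RNA-binding protein of mitochondrial RNA granules, was at 96.9 ± 6.42 and 77.0 ± 9.06 CPM (−0.33, SE 0.14), and Mto1, which modifies tRNA wobble bases, at 13.4 ± 0.986 and 10.4 ± 1.55 CPM (−0.37, SE 0.16). In the other direction stood Mettl17 (0.40, SE 0.17), Fastk (0.27, SE 0.12) and Trnt1, which adds the CCA end to tRNAs (0.45, SE 0.26).

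Of 23 genes that charge mitochondrial tRNAs, 0 passed, 5 were fitted higher and 18 lower, and the median was −0.11. With library totals the medians of the 3 lists became 0.42, 0.14 and 0.12, so those of the RNA processing and tRNA charging lists changed sign. Fars2, the phenylalanyl-tRNA synthetase, was at 26.2 ± 4.38 CPM in controls and 19.3 ± 3.21 CPM in PP-MP (log2 difference −0.44, SE 0.19; SD, n = 3; edgeR adjusted p = 0.371). Higher in PP-MP were the fitted values of Cars2 (0.46, SE 0.19), Rars2 (0.28, SE 0.17) and Mars2 (0.30, SE 0.23).

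Lars2, the leucyl-tRNA synthetase, was at 2728, 7256 and 1069 CPM in controls 1, 2 and 3 and 475, 495 and 573 CPM in PP-MP 1, 2 and 3 (log2 fold change −2.84, SE 0.66; edgeR adjusted p = 0.213). All controls were above all PP-MP libraries, and the controls stood in the same order as in the share of the 18S rRNA gene, control 2 first and control 3 last. Without control 2 the log2 fold change of Lars2 was −1.87. What part the 18S share had in these counts was not tested. DESeq2 called Dna2 and Lars2, 2 of the 93 genes of the 3 lists, against 4.25% of all genes. At an unadjusted p under 0.05 there were 9 of the 93 genes with all libraries (3 of them lower), against 13.9% of all genes. With library totals there were 20 (1 of them lower). With TMM factors there were 18 without control 2, 3 without control 3, 5 without PP-MP 1 and 4 without PP-MP 2. For library totals and for each library left out, the share of all genes at this p was not counted. Those counts are therefore no result about the lists.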

How the data were processed

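The authors deposited a table of raw read counts per gene (56674 rows by symbol) and 6 per-sample count files with identical values. Per the labels' protocols, libraries were directional (NEBNext Ultra II) and built from poly(A) RNA after Direct-zol purification. Per the submitters' processing notes, bcl2fastq and GRCm39 were used. Not given in the sources used here were the aligner, counter, strand setting and annotation, or how a read shared by a mitochondrial gene and its nuclear copy was assigned.

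After filterByExpr (by group) and TMM scaling, counts were fitted in edgeR 4.0.16 (R 4.3.3) and tested by its robust quasi-likelihood F test, two-sided. Adjustment followed Benjamini and Hochberg over 18284 genes, with 0.05 as threshold. Sums, shares and ratios were compared with exact permutation tests (SciPy 1.17.1). The edgeR procedure was tested on simulated data in which genes were independent and all had the same variability beyond counting error. These libraries need not have either property, so that run does not measure error rates here. Copies were found with BLAST 2.17.0 in GENCODE M21 transcripts; gene lengths and sequences come from that annotation, and no coordinates are given because its build (GRCm38) differs from GRCm39. Total counts were 68357478 to 112566641 per library, and no 2 libraries of a group were duplicates (chi-square per degree of freedom 154 to 928).

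All mRNA and rRNA genes and the tRNA genes past the filter are named, with, per nuclear list and direction, up to 3 genes of smallest p with a mean CPM of at least 1. A result of 1 gene that this rule names is not reported here. The 5 tRNA genes that failed the filter, the nuclear copies and Rn18s-rs5 are named beside these. Members, the 3 pathway lists and the 9 marker lists were chosen with earlier results of these data known. Alternatives were other scalings, no filter, DESeq2 1.42.0, limma-voom (limma 3.58.1), a replicate block, a threshold of 0.1, other class summaries and each library left out. Added after seeing the data were leaving out control 2 together with PP-MP 1, joining nuclear copies and overlapping genes with their member, sums without copied genes or without the 4 light-strand neighbours, and the complex shares.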

Additional observations from a re-analysis of the deposited data

How the results depend on the processing

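No mitochondrial gene was called in any of the alternatives run except DESeq2, which called 1 (mt-Co1), and 2 of the nuclear genes (Dna2 and Lars2). Labels do not pair replicate numbers across diets, and same-numbered samples did not deviate together (correlations −0.066, −0.087 and 0.047). With a replicate block, 0 mitochondrial and 0 nuclear list genes were called (12 and 4 at an unadjusted p under 0.05), and mt-Rnr2 was 0.21. The share of all genes at that unadjusted p was not counted with the block.

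The rRNA class difference of −0.22 was 0.018 with library totals, 0.21 with control 2 and PP-MP 1 left out together and −0.61 to 0.34 with 1 library left out, where it was positive without control 2 and without PP-MP 2 (0.035). With 1 library left out, the rRNA to mRNA ratio ranged from −0.13 to 0.74, the mRNA class from −0.55 to −0.29, the tRNA class from −1.10 to −0.55 and the tRNA to mRNA ratio from −0.63 to −0.21. Over all alternatives run, the mRNA class lay between −0.75 (mean of log2 CPM over genes) and −0.20 (library totals). The first of these weights each gene equally, and so includes in full the uncertain row of mt-Nd4, at 0.158 CPM in PP-MP 1. The tRNA class reached −0.51 and its ratio −0.07 without the 4 light-strand neighbours, and these 3 results stayed negative throughout.

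Single genes turned sign with library totals: mt-Rnr2 (0.075), mt-Nd2 (0.15), mt-Nd3 (0.075), mt-Nd5 (0.19), mt-Te (0.12), mt-Cytb (0.012), Top3a (0.0034) and Mgme1 (0.013). For mt-Rnr2, limma-voom gave 0.14 and control 2 and PP-MP 1 left out together 0.78. With 1 library left out, mt-Rnr2 ranged from −0.57 to 0.82, mt-Nd2 from −0.20 to 0.093, mt-Nd3 from −0.40 to 0.061, mt-Nd5 from −0.28 to 0.14, mt-Nd6 from −0.15 to 0.29, mt-Te from −0.34 to 0.11 and the complex V share of mRNA counts from −0.067 to 0.84 points. In 19 of the 32 tested mitochondrial genes, none of them called, leaving out 1 library moved the log2 fold change by over 1.5 times. The cause of these changes was not tested. With 3 libraries per group no exact permutation test can pass 0.05, and genes near 1 CPM rest on few counts.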
